A study of Mus musculus with 8 samples.

Results

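The chromatin around the Dlx1-Dlx2 and Dlx5-Dlx6 gene pairs was examined by single-nucleus ATAC-seq, which counts transposase insertions in open chromatin within each nucleus. Members were all peaks lying within 20 kb of either pair on the GRCm38 mouse genome, merged over the libraries. This gave 14 merged regions of 292532 in the whole data set, 8 at Dlx1-Dlx2 and 6 at Dlx5-Dlx6, and 5 of the 14 had a peak in all 8 libraries. The libraries came from wild-type mouse embryos and covered cortex (CTX) and the medial, lateral and caudal ganglionic eminences (MGE, LGE and CGE; together GE), with 2 libraries per region. Of the 8 libraries, 7 were labelled E12.5. The exception was CTX replicate 2, which was labelled E14.5, so age and replicate cannot be told apart in CTX. The labels do not say which embryos went into a library, so p-values measure the spread between these libraries, which may be technical.

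Dlx genes encode homeodomain transcription factors that drive the production, migration and GABAergic identity of neurons born in the ganglionic eminences. In mammals they lie in convergently transcribed pairs, and the genes of a pair share enhancers, several of them between the genes. Dlx1 and Dlx2 are known to act early, in progenitors, and to activate Dlx5 and Dlx6, which are used mainly as cells leave the cell cycle. DLX proteins bind to AT-rich sites with the core letters TAATTA, and proneural bHLH factors bind to E-boxes, of which CAGCTG is a common form.

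The following pieces of reference sequence from GRCm38 are shown because they lie between the genes of a pair or in the element that differed most between classes of nuclei. Each is the 300-base stretch free of annotated exons with the most TAATTA, and then the most CAGCTG, in its element. They are printed from the forward strand with TAATTA and CAGCTG in capitals. Both motifs read the same on either strand.
Dlx5-Dlx6 intergenic, chr6:6872427-6872726: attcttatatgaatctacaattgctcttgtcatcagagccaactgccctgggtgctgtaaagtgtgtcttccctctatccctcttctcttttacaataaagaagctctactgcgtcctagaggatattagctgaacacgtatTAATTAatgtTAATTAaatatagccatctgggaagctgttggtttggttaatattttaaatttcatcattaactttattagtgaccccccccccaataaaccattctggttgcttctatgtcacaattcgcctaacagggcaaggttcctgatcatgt
Dlx1-Dlx2 intergenic, chr2:71535562-71535861: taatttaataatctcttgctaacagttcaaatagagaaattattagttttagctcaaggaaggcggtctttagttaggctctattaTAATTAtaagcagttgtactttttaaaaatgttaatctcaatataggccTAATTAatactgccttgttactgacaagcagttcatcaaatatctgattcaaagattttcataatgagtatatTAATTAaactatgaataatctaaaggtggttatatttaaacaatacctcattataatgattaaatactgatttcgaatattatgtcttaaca
far Dlx1 upstream element, chr2:71512267-71512566: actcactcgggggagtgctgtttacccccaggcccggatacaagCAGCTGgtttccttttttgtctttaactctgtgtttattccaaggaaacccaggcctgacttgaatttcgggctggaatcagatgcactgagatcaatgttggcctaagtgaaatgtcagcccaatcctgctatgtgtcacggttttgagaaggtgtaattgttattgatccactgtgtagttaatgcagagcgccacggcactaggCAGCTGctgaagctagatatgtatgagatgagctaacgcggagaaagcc
The Dlx5-Dlx6 stretch held 2 TAATTA and the Dlx1-Dlx2 stretch 3, while the far Dlx1 upstream element held 2 CAGCTG and no TAATTA. A best stretch with at least 2 TAATTA was present in 23.2% of the 311 shared regions that were 8000 to 10000 bases wide, and one with at least 3 in 2.89%. In these comparisons exons were not set aside. At least 2 CAGCTG were present in the best stretch of 11.8% of 19322 shared regions 700 to 1300 bases wide. These are matches of letters and not measured binding sites.

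Each pair lay inside a broad open domain that was among the widest of the data set. The Dlx1/2 domain spanned chr2:71522721-71548699 (25979 bp) and covered Dlx1 (71528113-71533981, forward strand) and Dlx2 (71543408-71546754, reverse strand) with their start sites. The Dlx5/6 domain spanned chr6:6849516-6883109 (33594 bp) and covered Dlx6 (6863334-6868568, forward strand) and Dlx5 (6877805-6882085, reverse strand). Among the 68274 regions with a peak in every library, the Dlx5/6 domain ranked 12 by width and 11 by summed count (216726), and the Dlx1/2 domain ranked 21 and 9 (244146). TAATTA occurred 0.616 times per kb in the Dlx1/2 domain and 0.327 times per kb in the Dlx5/6 domain, against 0.329 per kb over all shared regions. In the stretches between the genes it occurred 0.634 times per kb at Dlx1-Dlx2 and 0.730 at Dlx5-Dlx6.

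Several smaller elements flanked the domains. The near Dlx1 upstream element (chr2:71514645-71520664) ended 7449 bp upstream of Dlx1 and held a start site of the neighbouring Metap1d, an aminopeptidase gene, and exons of Metap1d and the antisense transcript Dlx1as. The far Dlx1 upstream element (chr2:71512031-71513065) lay 15048 bp upstream of Dlx1 and overlapped a Metap1d exon. The Dlx2-side element (chr2:71550927-71552426) and the Dlx5-side element (chr6:6884680-6885585) lay 4173 bp upstream of Dlx2 and 2595 bp upstream of Dlx5, outside annotated genes. The Dlx6-side element (chr6:6839020-6848962) lay 14372 bp upstream of Dlx6, within the noncoding gene Dlx6os1, and reached beyond the window. The other 7 regions were 3 to 648 bp wide, had a peak in 1 to 4 libraries, and held at most 1.21 CPM (counts scaled to 1000000 counts per library) in any library.

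The libraries held 3465 to 6845 nuclei (39253 in all) and 77387940 to 138873845 counts. Any pair of libraries shared 15 to 56 cell barcodes, and 881 barcodes occurred in more than 1 library. Odd values made up 9.54 to 10.4% of the nonzero entries in the replicate 1 libraries and 5.17 to 5.85% in the replicate 2 libraries. Nuclei were clustered without regions within 1 Mb of the Dlx pairs and named from markers that exclude Dlx genes. The GE libraries consisted mainly of progenitor-like (39.1 to 60.1%) and GABAergic-like nuclei (28.4 to 57.8%). The progenitor-like clusters had 4, 4 and 6 of 12 progenitor markers raised, and the GABAergic-like clusters 6, 9 and 5 of 13 GABAergic markers. The main progenitor-like cluster of MGE also had 3 of 13 GABAergic markers raised. The cluster with most glutamatergic-like nuclei of GE had 4 of 10 glutamatergic markers raised (mean log2 fold 0.41). CTX replicate 1 was 95.8% glutamatergic-like, whereas CTX replicate 2 was 10.96% glutamatergic-like and 83.4% unnamed. Its unnamed nuclei were mostly 1 cluster led by Sec31b, Pdzd3 and Tmem156, with Wnt8b, Dmrta1 and Sp8 also among the leading genes. The 2 CTX libraries therefore stood apart from each other in makeup. In the main unnamed cluster 2 of 12 progenitor and 4 of 10 glutamatergic markers were raised (mean log2 fold 0.06 and 0.19). In the largest cluster of CTX replicate 1 (2461 nuclei) 1 of 12 and 8 of 10 were raised (-0.09 and 1.07). How many nuclei of either CTX library were cortical progenitors or neurons was not tested. The labels were kept, and no difference between the CTX libraries is read as one of age.

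**Figure D1:**
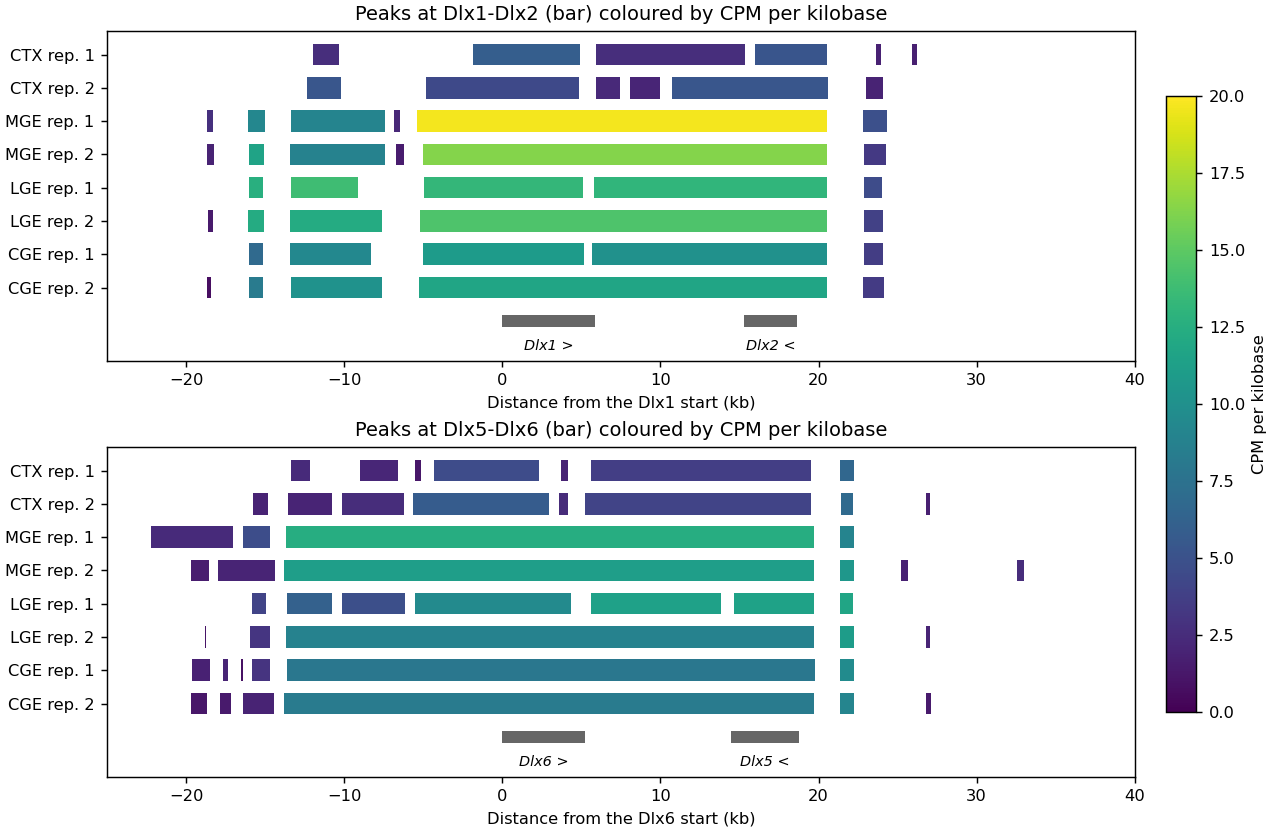
Peaks called in each library (bars, 1 row per library) along the Dlx1-Dlx2 window (top, distance from the Dlx1 start in kb) and the Dlx5-Dlx6 window (bottom, distance from the Dlx6 start in kb), coloured by CPM per kb of peak; grey bars mark the Dlx genes. Both MGE libraries, LGE replicate 2 and CGE replicate 2 have 1 unbroken peak over each pair, while both CTX libraries have several at lower density.

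Whether a pair was covered by 1 peak or by several differed between libraries. The Dlx1/2 domain was 1 peak in MGE replicates 1 and 2, LGE replicate 2 and CGE replicate 2, 2 peaks in LGE replicate 1 and CGE replicate 1, and 3 and 4 peaks in CTX replicates 1 and 2. The Dlx5/6 domain was 1 peak in the same libraries and in CGE replicate 1, 5 in LGE replicate 1, and 6 and 5 in CTX. By width among the peaks of its own library, the widest Dlx5/6 peak ranked 1 in LGE replicate 2, 3 to 5 in the MGE and CGE libraries, 44 in LGE replicate 1, and 51 and 31 in CTX, and the widest Dlx1/2 peak ranked 6 to 22 in GE and 158 and 103 in CTX. All 4 libraries with a split Dlx1/2 domain left out chr2:71533304-71533809, and those 506 bp lay wholly in the Dlx1 3′ UTR. The 3 libraries with a split Dlx5/6 domain left out chr6:6867656-6868533, 878 bp wholly in the Dlx6 3′ UTR. They also shared gaps at chr6:6852548-6853183 and chr6:6857191-6857654, outside the Dlx genes. A further gap of CTX replicate 1 (628 bp) lay wholly in the Dlx2 3′ UTR, and 193 of the 843 bp of a gap of LGE replicate 1 lay in that of Dlx5. All other gaps lay outside Dlx exons.

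Where the peaks were split, the stretch between the genes could be read apart from the genes. In CTX the intergenic peaks were less open than those over Dlx1 and Dlx2. In CTX replicate 1 the peak between Dlx1 and Dlx2 had 2.59 CPM per kb, below the Dlx1 peak (5.93) and the Dlx2 peak (5.29). In CTX replicate 2 the pair of intergenic peaks had 2.30 and 2.06 CPM per kb, below the Dlx1 peak (4.44) and the Dlx2 peak (5.33). They covered the Dlx1 side of the stretch, while its Dlx2 side lay inside the Dlx2 peak (chr2:71538820-71548699), and the TAATTA-bearing Dlx1-Dlx2 stretch fell in a gap. In LGE replicate 1 the Dlx5-Dlx6 intergenic peak (chr6:6868930-6877154, 8225 bp) had 11.3 CPM per kb, close to the Dlx5 peak (11.5) and above the Dlx6 peak (9.53). These values come from single libraries and had no replicate check.

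The comparison of CTX with GE asked how far accessibility at the Dlx pairs separated dorsal from ventral forebrain, and both pairs were far less accessible in CTX. The Dlx1-Dlx2 window summed to 93.8 and 116.8 CPM in CTX replicates 1 and 2, against 346.2 ± 40.0 (SD, n = 2) in CGE, 430.2 ± 41.1 in LGE and 533.7 ± 67.3 in MGE. The Dlx5-Dlx6 window had 95.7 and 132.0 CPM in CTX (113.8 ± 25.7), 285.3 ± 8.98 in CGE, 303.9 ± 11.5 in LGE and 418.9 ± 36.6 in MGE (SD, n = 2 each). The summed counts of GE exceeded those of CTX 4.10-fold at Dlx1-Dlx2 and 2.94-fold at Dlx5-Dlx6. Peaks were called in each library, and those of CTX covered 22969 and 26253 bp at Dlx1-Dlx2 (31084 to 35193 in GE) and 25931 and 32277 bp at Dlx5-Dlx6 (31761 to 41201 in GE), less than in all 6 GE libraries except that CTX replicate 2 exceeded LGE replicate 1 at Dlx5-Dlx6. Per covered kb CTX had 4.08 and 4.45 CPM at Dlx1-Dlx2, against 9.89 to 16.5 in GE, and 3.69 and 4.09 at Dlx5-Dlx6, against 7.52 to 10.8. The folds were then 2.998 and 2.285, and on both scales both CTX libraries lay below all 6 GE libraries at each pair. Each of these differences had p = 0.0357 in an exact two-sided permutation test over the 28 choices of 2 libraries of 8, the smallest p it can give. Without either CTX library the smallest p is 0.143. The third pair, Dlx3-Dlx4, which acts mainly in placenta, skin and bone, had 59.8 ± 3.22 CPM in CTX (n = 2) and 73.3 ± 18.9 in GE (n = 6), with p = 0.429 in the exact permutation test. Per covered kb it had 3.64 and 3.69 CPM in CTX, again below all 6 GE libraries (4.085 to 6.06). That difference was 1.28-fold, with p = 0.0714 in the exact permutation test. In summed counts, fewer cells of a type and less open chromatin per cell cannot be told apart.

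**Figure D2:**
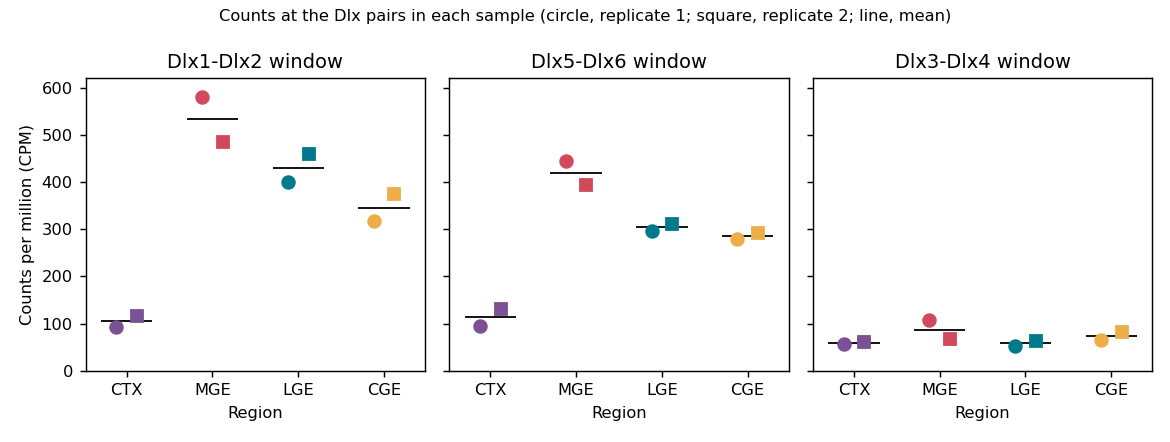
Summed counts (CPM) of all peaks in the Dlx1-Dlx2, Dlx5-Dlx6 and Dlx3-Dlx4 windows for each library by region (circles, replicate 1; squares, replicate 2; line, mean of 2). Both CTX libraries lie below all 6 GE libraries at Dlx1-Dlx2 and Dlx5-Dlx6, and at Dlx3-Dlx4 the regions overlap.

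By element, edgeR's quasi-likelihood test with Benjamini-Hochberg adjustment over all 68274 shared regions called 3 of the 5 shared Dlx elements lower in CTX and none higher, where 14.9% of all shared regions were called and 5.39% were lower. The Dlx1/2 domain had 88.4 and 103.2 CPM in CTX, 509.0 and 416.0 in MGE, 326.4 and 371.3 in LGE, and 260.3 and 303.9 in CGE (replicates 1 and 2). The highest CTX value was far below the lowest GE value, and the domain was 3.21-fold lower in CTX (log2 change -1.68, SE 0.16, adjusted p = 0.00268). The Dlx5/6 domain had 89.9 and 124.2 CPM in CTX, 416.4 and 373.3 in MGE, 282.5 and 297.8 in LGE, and 263.9 and 277.4 in CGE. Its groups did not overlap either, and it was 2.53-fold lower in CTX (log2 change -1.34, SE 0.14, adjusted p = 0.00321). The near Dlx1 upstream element had 4.33 and 11.5 CPM in CTX, 53.6 and 52.9 in MGE, 58.3 and 70.9 in LGE, and 47.7 and 58.1 in CGE. It was 6.30-fold lower in CTX (log2 change -2.65, SE 0.37, adjusted p = 0.00625), with log2 changes of -3.42 without CTX replicate 2 and -2.13 without CTX replicate 1. Its peaks were also shorter in CTX, and with an offset for the bases covered the log2 change was -1.18 (adjusted p = 0.0121, with 9.17% of all shared regions called). With the same offset it was -1.46 at the Dlx1/2 domain and -1.09 at the Dlx5/6 domain, so which element changed most depends on the offset.

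The elements beside Dlx2 and Dlx5 did not pass the test. The Dlx2-side element had 0.497 and 2.10 CPM in CTX, 7.24 and 4.65 in MGE, 5.28 and 4.80 in LGE, and 4.10 and 4.73 in CGE (log2 change -1.80, SE 0.53, adjusted p = 0.0669 with edgeR). The CTX replicates differed more from each other there than at the domains, and the element was called with either CTX library left out (log2 change -1.10 to -3.06, adjusted p = 0.0478 and 0.00151), fits that called 24.2% and 26.3% of all shared regions. DESeq2 also called it (adjusted p = 0.0045), where it called 23.1% of all shared regions. Its peak was shorter in CTX (270 and 1086 bp) than in GE (1146 to 1483 bp), and with the offset for covered bases the log2 change was -0.84 (adjusted p = 0.0567). The Dlx5-side element had 5.78 and 5.55 CPM in CTX and 7.74 to 9.75 in GE (log2 change -0.41, SE 0.21, adjusted p = 0.264 with edgeR). All 5 shared elements were lower in both CTX libraries than in all 6 GE libraries, which held for 22.3% of all shared regions.

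The remaining elements had no peak in at least 1 CTX library, and a region without a peak has no deposited count, so their difference is one of peak calls. The far Dlx1 upstream element had a peak in all 6 GE libraries and in neither CTX library, with 9.49 and 11.1 CPM in MGE, 11.1 and 11.8 in LGE, and 5.83 and 7.64 in CGE. The Dlx6-side element had no peak in CTX replicate 1 and 5.40 CPM in CTX replicate 2, against 27.1 and 15.1 in MGE, 6.33 and 7.13 in LGE, and 9.17 and 9.802 in CGE. These values cover the whole merged region. Its peaks inside the window alone had 1.73 CPM in CTX replicate 2, 20.7 and 8.84 in MGE, 3.60 and 3.98 in LGE, and 6.41 and 5.86 in CGE. CTX replicate 2 lay below all 6 GE libraries on both measures, close to LGE replicate 1 on the first and well below it on the second. The small region upstream of Dlx1 at chr2:71521226-71521873 had a peak in the 2 MGE libraries alone, at 0.886 and 0.724 CPM.

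Sums per gene followed how the peaks were split and are given for that reason. In MGE replicate 1 the same peak was counted for Dlx1 and Dlx2 (509.0 CPM each), whereas in LGE replicate 1 Dlx5 had 58.5 CPM and in LGE replicate 2 297.7 CPM. On this measure Dlx1 (log2 change -2.90, SE 0.16, adjusted p = 0.00171) and Dlx2 (-2.41, SE 0.37, adjusted p = 0.0177) were lower in CTX with edgeR, where 4.3% of 17333 genes were called and 0.888% were lower. Dlx5 (-2.12, SE 0.56, adjusted p = 0.0852) and Dlx6 (-1.83, SE 0.55, adjusted p = 0.124) did not pass.

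Among the eminences, the order of both domains was MGE, LGE, CGE, and none of the 5 elements was called in any comparison by edgeR. The share of glutamatergic-like nuclei, which were low at both domains, ran in the reverse order, with 0.219% and 1.79% in MGE, 14.2% and 10.8% in LGE, and 21.6% and 27.9% in CGE (replicates 1 and 2). GABAergic-like nuclei, which were high at both domains, made up 47.3% and 57.8% in MGE, 30.1% and 28.4% in LGE, and 33.3% and 32.2% in CGE. The part of either share in the result was not tested. The shares called over all shared regions were 0.694% for MGE against LGE, 0.325% for MGE against CGE and 0% for LGE against CGE. At an unadjusted p under 0.05, 2 elements passed in each MGE comparison and none in LGE against CGE. The same threshold was passed by 9215, 8839 and 3264 of the 68274 shared regions, listed in the order of the shares above. In that order DESeq2 called 0, 2 and 0 elements (7.4%, 6.61% and 0.611% of all shared regions). The Dlx1/2 domain was 1.68-fold higher in MGE than in CGE (log2 change 0.75, SE 0.18, adjusted p = 0.128 with edgeR, 0.00687 with DESeq2). The Dlx5/6 domain was 1.499-fold higher (0.58, SE 0.16, adjusted p = 0.175 with edgeR, 0.0294 with DESeq2). Against LGE the log2 changes in MGE were 0.45 (SE 0.18, adjusted p = 0.324) and 0.49 (SE 0.16, adjusted p = 0.231) with edgeR. LGE exceeded CGE by 0.30 (SE 0.18) at Dlx1/2 and 0.09 (SE 0.16) at Dlx5/6, and neither difference passed the test. The edgeR fit shared its spread between all groups, and with either CTX library left out both domains passed in MGE against CGE (adjusted p = 0.0421 to 0.0429). In those fits 8.87 to 9.06% of all shared regions were called.

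The counts were then summed within classes of nuclei in each library. These values describe the classes and carry no test, since the classes were made from the same nuclei. Both domains were most open in GABAergic-like nuclei, but the step from progenitor-like nuclei was much steeper at Dlx5/6. In the 6 GE libraries the Dlx1/2 domain had 258 to 445 CPM in progenitor-like and 392 to 656 in GABAergic-like nuclei. The Dlx5/6 domain had 178 to 298 CPM in progenitor-like and 543 to 672 in GABAergic-like nuclei, with no overlap. The ratio of GABAergic-like to progenitor-like CPM ran from 1.29 to 1.52 (median 1.47) at Dlx1/2 and from 2.25 to 3.23 (median 2.88) at Dlx5/6, and it was higher at Dlx5/6 in each of the 6 libraries. A ratio above 1 in all 6 was found for 28.5% of shared regions and a ratio above 2 for 2.74%. Median depth was 16389 to 26932 counts in progenitor-like and 11144 to 13786 in GABAergic-like nuclei.

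**Figure D3:**
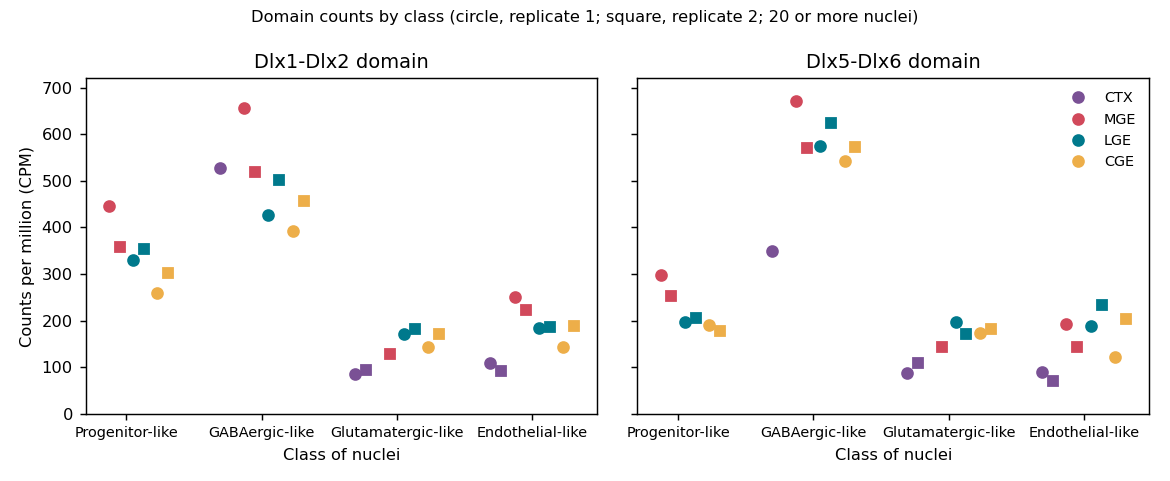
CPM of the Dlx1/2 domain (left) and the Dlx5/6 domain (right) in each class of nuclei, 1 point per library with at least 20 nuclei of the class (circles, replicate 1; squares, replicate 2; colour, region). GABAergic-like nuclei of GE lie at 543 to 672 CPM at Dlx5/6, apart from progenitor-like nuclei at 178 to 298 CPM, and the classes overlap at Dlx1/2.

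The flanking elements did not share one pattern. The far Dlx1 upstream element, whose sequence is printed with its CAGCTG in capitals, had the steepest step. It had 5.91 CPM in progenitor-like and 17.3 in GABAergic-like nuclei of MGE replicate 1, 5.22 and 20.5 in MGE replicate 2, and 4.73 and 33.0 in LGE replicate 1. The corresponding values were 4.40 and 37.8 in LGE replicate 2, 3.55 and 15.2 in CGE replicate 1, and 2.82 and 21.6 in CGE replicate 2. The classes did not overlap, and the ratio was 2.93 to 8.60 (median 5.63), lowest in both MGE libraries. This element has no peak in CTX, so it is not among the shared regions whose ratios were counted. How often regions with peaks only in GE reach such a ratio was not tested. The Dlx6-side element, counted by class only in its peaks inside the window, had a ratio of 1.92 to 3.55 and the Dlx5-side element of 1.204 to 1.65. The near Dlx1 upstream element differed little between the classes (1.06 to 1.32). The Dlx2-side element ran the other way, with a ratio of 0.561 to 0.873 that was below 1 in all 6 libraries, as for 25.7% of shared regions.

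**Figure D4:**
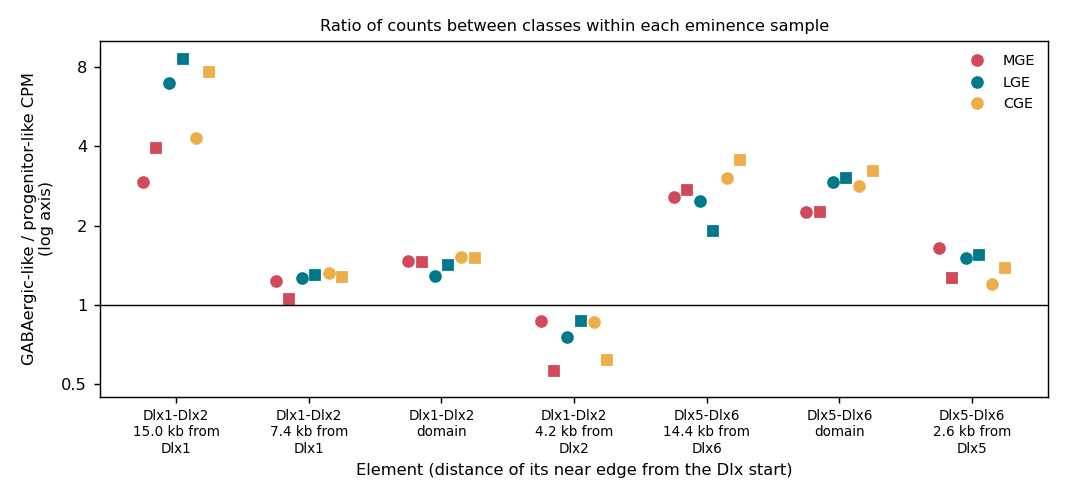
Ratio of CPM in GABAergic-like to progenitor-like nuclei (log axis; line at 1) for the 7 main Dlx elements in the 6 GE libraries (circles, replicate 1; squares, replicate 2; colour, region). The far Dlx1 upstream element (leftmost) reaches 2.93 to 8.60, the Dlx5/6 domain 2.25 to 3.23, and the element beside Dlx2 lies below 1.

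Within the Dlx5/6 domain of LGE replicate 1 the steepest step was between the genes. The intergenic peak, from which the Dlx5-Dlx6 sequence is printed, had 6.69 CPM per kb in progenitor-like and 27.3 in GABAergic-like nuclei, a ratio of 4.08. The Dlx6 peak had a ratio of 2.43 and the Dlx5 peak of 2.27. The pair of peaks upstream of Dlx6 had ratios of 3.53 (chr6:6849699-6852542) and 2.54 (chr6:6853184-6857190), so the outermost peak came near the intergenic one. At Dlx1/2 the peak over Dlx1 (ratio 1.24) and the peak over the intergenic stretch and Dlx2 (1.33) were close in the same library.

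Differences between progenitor-like nuclei of the eminences were tested with edgeR on their summed counts. The Dlx5/6 domain was 1.54-fold higher in MGE than in CGE (log2 change 0.62, SE 0.15, adjusted p = 0.0382), the 1 call among 5 elements, where 9.15% of 68272 regions were called and 3.6% were higher. The progenitor-like nuclei of the groups lay in different clusters, since 3449 and 1313 of those of MGE (replicates 1 and 2) were in a cluster led by Nkx2-1 that held 12 and 11 nuclei of CGE. The call was lost when any GE library other than MGE replicate 2 was left out (adjusted p = 0.0562 to 0.1202). The Dlx1/2 domain had a log2 change of 0.55 (SE 0.18, adjusted p = 0.101). No element was called in MGE against LGE (11.1% of all regions called) or LGE against CGE (0.0117%). At an unadjusted p under 0.05, 1 and 0 elements passed, beside 16544 and 6860 of the 68272 regions. In GABAergic-like nuclei edgeR called no element in MGE against LGE, MGE against CGE or LGE against CGE (9.45%, 5.99% and 0.221% of 68207 regions called). At an unadjusted p under 0.05, 1, 1 and 0 elements passed, beside 14836, 13496 and 7289 of the 68207 regions. There the Dlx5/6 domain differed by 0.14 (log2, SE 0.14, adjusted p = 0.660) between MGE and CGE. Whether the eminence differences differ between the classes was not tested. The naming rule placed only 3 CTX nuclei in the progenitor-like class, so CTX was not compared in that class. Since 83.4% of the nuclei of CTX replicate 2 were unnamed, this is not a count of cortical progenitors.

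The clusters within a class also differed. In the MGE libraries 1 GABAergic-like cluster, with Lhx6, Slc32a1, Dlx5, Dlx6 and Dlx2 among its leading genes, had 774.8 and 657.1 CPM at the Dlx1/2 domain and 736.7 and 656.5 at the Dlx5/6 domain (replicates 1 and 2). The Dlx genes lead it through the same peak counts, so these values are not a separate observation. A further GABAergic-like cluster, with 649 and 647 MGE nuclei, had 340.0 and 290.5, and 473.8 and 416.8, and 132 and 88 MGE nuclei lay in the cluster that held most LGE and CGE GABAergic-like nuclei. Progenitor-like nuclei of LGE and CGE fell into clusters that followed the replicate number, since LGE and CGE replicate 1 lay mostly in 1 cluster and replicate 2 mostly in another. In LGE replicate 2 these clusters, that of the replicate 1 libraries first, had 436.8 and 299.9 CPM at Dlx1/2 and 308.4 and 138.0 at Dlx5/6, and in CGE replicate 2 429.6 and 273.5, and 236.1 and 165.0. The first cluster held 877 and 380 nuclei of these replicate 2 libraries, and 3369 and 1638 of LGE and CGE replicate 1. In replicate 1 the whole progenitor-like class had 330.2 (LGE) and 258.4 CPM (CGE) at Dlx1/2, and 196.6 and 191.4 at Dlx5/6. The first cluster is therefore not read as the more open one.

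Classes outside the GABAergic lineage were below GABAergic-like nuclei at both domains, but at Dlx5/6 they overlapped progenitor-like nuclei. Glutamatergic-like nuclei had 127 to 182 CPM at Dlx1/2 and 143 to 197 at Dlx5/6 in GE, and 85.3 and 93.1, and 88.3 and 108, in CTX. Endothelial-like nuclei had 144 to 251 and 121 to 233 CPM in GE, and 109 and 92.3, and 89.6 and 70.9, in CTX. The signal in endothelial-like nuclei was thus higher in GE than in CTX libraries at both domains, and the part of free fragments in it was not tested. CTX replicate 1 held 137 GABAergic-like nuclei (3.34%, median 3515 counts) with 526.7 CPM at Dlx1/2 and 349.6 at Dlx5/6. They supplied 3.66% and 2.39% of the counts of these domains in their library, which without them had 85.7 and 88.3 CPM. CTX replicate 2 held no GABAergic-like nuclei and had the higher CPM of the CTX libraries at both domains.

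For shares of nuclei, each nucleus was thinned to 5000 counts, and nuclei with fewer counts were left out. Most nonzero entries were even, and thinning single counts may not equalise nuclei whose counts come in pairs. The share of nuclei with at least 1 count in a window was then compared, with exact Clopper-Pearson 95% intervals that cover counting error only. At Dlx1-Dlx2 it was 30.6% (29.2 to 32.1) and 36.1% (34.8 to 37.5) in CTX, 81.2% and 76.9% in MGE, 69.2% and 74.0% in LGE, and 62.0% and 64.8% in CGE. At Dlx5-Dlx6 it was 31.6% (30.1 to 33.1) and 38.0% (36.6 to 39.3) in CTX, 69.9% and 72.1% in MGE, 56.6% and 60.0% in LGE, and 57.1% and 58.6% in CGE. The unthinned means, over all nuclei, were 56.6% (CTX) and 82.1% (GE) at Dlx1-Dlx2 and 58.3% and 74.9% at Dlx5-Dlx6. In GE Dlx1-Dlx2 marked more nuclei in each of the 6 libraries. Dlx3-Dlx4 marked 18.2 to 31.2% of nuclei in the 8 libraries.

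By share of nuclei and by CPM, the pairs were ordered differently between the classes in LGE and CGE. In GE 66.4 to 77.1% of progenitor-like nuclei had a count at Dlx1-Dlx2 and 45.1 to 57.7% at Dlx5-Dlx6, whereas GABAergic-like nuclei had 74.8 to 86.9% and 84.1 to 89.0%. Among GABAergic-like nuclei of LGE and CGE the share and the window CPM were both higher at Dlx5-Dlx6 in all 4 libraries. Per kb of peak the Dlx1/2 domain was higher in LGE replicate 2 (19.5 against 18.6) and CGE replicate 2 (17.7 against 17.1). In CGE replicate 1 its 2 peaks (16.1 and 15.4) were below the Dlx5/6 domain (16.2), and in LGE replicate 1 both domains were split. The order therefore depends on the scale. In MGE the shares were 86.9% and 88.3% (replicate 1) and 80.3% and 84.1% (replicate 2), but the unthinned window CPM went the other way (743.9 against 718.3, and 600.6 against 599.1). The CPM of the domains alone went with the shares (655.6 at Dlx1/2 against 672.4 at Dlx5/6, and 520.0 against 570.2). Per kb of peak the Dlx1/2 domain was higher (25.3 against 20.1, and 20.35 against 16.99), so no order is read there. In endothelial-like nuclei of GE the shares were 41.7 to 58.2% and 29.0 to 58.9%, from 24 to 79 nuclei per library. The progenitor-like share exceeded the endothelial-like share at Dlx1-Dlx2 in 6 of 6 libraries but at Dlx5-Dlx6 only in MGE replicate 2. Before thinning, endothelial-like nuclei were deeper than progenitor-like nuclei (median up to 51573 counts), except in MGE replicate 2 (22013 against 26932). The part of depth in these shares was not tested. By CPM of all nuclei of the class, progenitor-like exceeded endothelial-like nuclei in 6 of 6 libraries at the Dlx1/2 domain and in 4 of 6 at the Dlx5/6 domain, and how much of either signal is background was not tested. The share of GABAergic-like nuclei with a count at both pairs (64.5 to 78.5%) was close to the product of the single shares (63.8 to 76.7%).

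**Figure D5:**
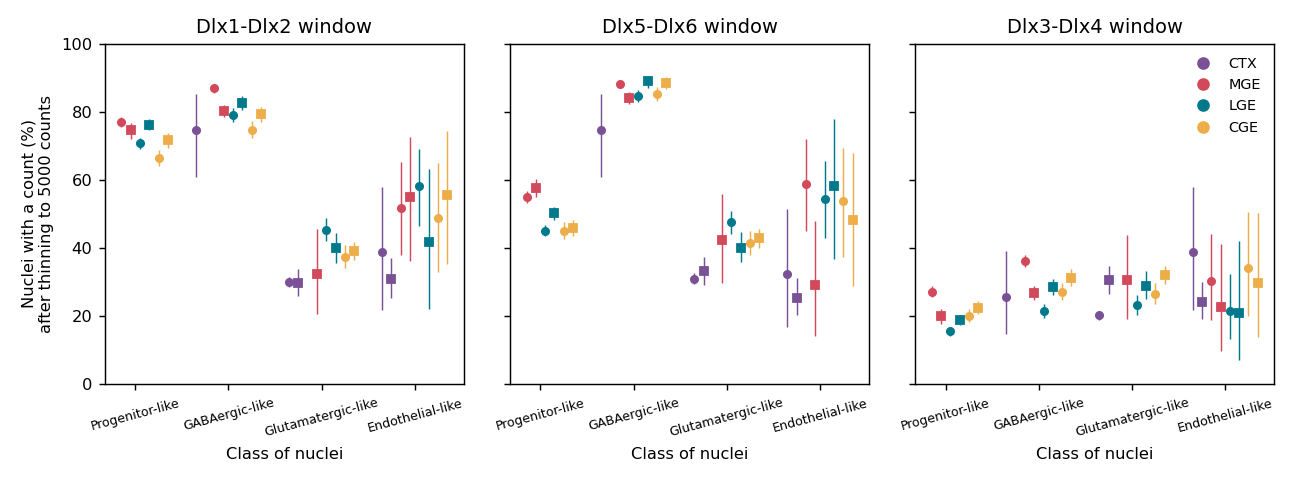
Percent of nuclei with at least 1 count in the Dlx1-Dlx2, Dlx5-Dlx6 and Dlx3-Dlx4 windows by class after thinning to 5000 counts, 1 point per library with at least 20 nuclei (circles, replicate 1; squares, replicate 2; colour, region; bars, exact 95% intervals). Progenitor-like nuclei of GE stand at 66.4 to 77.1% at Dlx1-Dlx2 and 45.1 to 57.7% at Dlx5-Dlx6, and GABAergic-like nuclei are high at both.

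The genes that act with DLX factors were described from a list of 25: upstream regulators such as Gsx2, lineage transcription factors, GABA synthesis and release genes, migration receptors, and Dlx3 and Dlx4. Counts were summed over peaks in the gene and the 2000 bp upstream. As for the Dlx genes, such sums can depend on where peaks were split. No offset for covered bases was run for genes, so the part of splitting in these folds was not tested. In CTX against GE, edgeR called 7 of the 25, all lower in CTX, where 4.3% of 17333 genes were called and 0.888% were lower. The list's median log2 change was -0.35, against -0.02 over all genes. Gsx2, a regulator of LGE progenitors upstream of Dlx genes, had 6.04 and 9.37 CPM in CTX and 36.3 to 126.4 in GE, both extremes being LGE libraries (replicates 1 and 2; log2 change -2.98, SE 0.49, adjusted p = 0.0216). It lost the call without CTX replicate 1, MGE replicate 1 or CGE replicate 2 (adjusted p = 0.0558 to 0.0760). Slc32a1, the vesicular GABA transporter, had 21.4 and 15.9 CPM in CTX and 57.4 to 132.8 in GE (-1.95, SE 0.25, adjusted p = 0.0102). Nkx2-1, the MGE-defining factor, had 13.7 and 20.3 CPM in CTX and 28.6 to 495.5 in GE (-1.92, SE 0.21, adjusted p = 0.00804). The others were Gad2 (-1.69), Sp9 (-1.18), Lhx6 (-0.92) and Gad1 (-0.84). Lhx6 had 29.1 and 43.4 CPM in CTX, which overlapped LGE (37.7 and 48.7) and came near CGE (46.4 and 49.7), while MGE stood apart at 249.9 and 212.1. Dlx3 (-0.27, SE 0.23, adjusted p = 0.598) and Dlx4 (0.31, SE 0.43, adjusted p = 0.754) did not pass.

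Between the eminences the list separated MGE from the others through the same 2 genes. Nkx2-1 was higher in MGE than in LGE (log2 change 3.69, SE 0.25, adjusted p = 0.00487 with edgeR) and CGE (3.67, SE 0.25, adjusted p = 0.00595), with 495.5 and 319.4 CPM in MGE and at most 33.3 elsewhere in GE. Lhx6, which acts downstream of Nkx2-1 in MGE-derived interneurons, was higher by 2.42 (SE 0.20, adjusted p = 0.0115) and 2.22 (SE 0.20, adjusted p = 0.0172). Over all genes 0.0923% and 0.0865% were called, and 0.0692% and 0.0577% were higher in MGE. The calls of both genes were lost without either LGE library (MGE against LGE) or either CGE library (MGE against CGE), and those of Lhx6 also without MGE replicate 1 (adjusted p = 0.0525 to 0.218 over both genes). No gene of the list was called in LGE against CGE by edgeR or DESeq2 (0% and 0.56% of all genes). Dlx3 differed by 0.69 and 0.30 (log2, adjusted p = 0.810 and 0.832 with edgeR) and Dlx4 by 1.35 and 0.77 (0.806 and 0.804) between MGE and LGE or CGE, and by -0.39 and -0.58 (adjusted p = 1 each) between LGE and CGE.

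Among the genes whose log2 CPM over the 8 libraries ran most like the mean of the 4 Dlx genes were 8030462N17Rik (Pearson's r = 0.989), Evi5l (0.974), Exosc7 (0.972) and Skor2 (0.962). With the mean of the domains, which does not depend on which gene a split peak is counted for, r was 0.904 to 0.964. Gaps in a split domain still hold no counts. The range over the libraries was 1.38 on the log2 scale for Skor2 and 0.24 to 0.51 for the other 3. The genes were chosen by r over these libraries, and r is given as a description.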

How the data were processed

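Single-nucleus ATAC-seq libraries of 8 mouse forebrain samples were used. The deposited files hold raw counts per peak and nucleus. Per the labels' processing notes they were made with Cell Ranger ATAC 1.2.0 on GRCm38 (mm10), with peaks called in each library separately. The deposited motif tables were not used here.

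Peaks overlapping by at least 1 bp were merged over the libraries, and counts were summed per library and expressed as CPM (per 1000000 of the library's peak counts). Genes were GENCODE M21. Summed counts (2 samples per group, 1 model for 4 groups) were tested with edgeR 4.0.16 in R 4.3.3 (TMM, filterByExpr, quasi-likelihood test, Benjamini-Hochberg, calls at 0.05) over the 68274 regions with a peak in all 8 libraries or over 17333 genes. DESeq2 1.42.0 was an alternative. The scripts were tested on simulated data. Total counts per sample were 77387940 to 138873845. Nuclei were clustered (30 latent semantic components, 20 neighbours, leidenalg 0.10.2 at resolution 0.5) without the 150 regions within 1 Mb of the pairs. A cluster was named from at least 3 raised markers of a fixed list. Doublets were not removed. Classes with at least 50 nuclei in a library were tested. The progenitor-like fit held the 6 GE libraries, and the GABAergic-like fit held these and CTX replicate 1, the only CTX library with enough such nuclei. Named were the regions holding a Dlx start or lying between the genes, any other called region, the 3 called network genes with the largest fold per comparison, Dlx3, Dlx4, and the 5 most similar genes, of which 1 is not reported here. Elements beyond this rule were named after their values had been seen. Members and lists were chosen with earlier results of these data known. Sequence was read from the GRCm38.p6 genome.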

Additional observations from a re-analysis of the deposited data

Results flagged for a closer look

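Among 20 sets of libraries checked for a value far from the others, 2 had one, and chance gives about 1 in 20. The Dlx2-side element had 7.24 CPM in MGE replicate 1, where the median of the 6 GE libraries was 4.76, and the gap to the next library was 0.6251 of the range. The near Dlx1 upstream element had a ratio of GABAergic-like to progenitor-like CPM of 1.06 in MGE replicate 2, where the median was 1.27, with a gap of 0.665 of the range.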

How the results depend on the processing

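The 3 calls in CTX against GE (both domains and the near Dlx1 upstream element) were kept under all alternatives run: no TMM, DESeq2, no filter, peaks in at least 2 libraries, a covered-length offset, the replicate block and each library left out. DESeq2 called 4 of 5 elements, and the fit of regions with peaks in at least 2 libraries called 4 of 10. The Dlx2-side element was also called by DESeq2 (log2 change -1.77, adjusted p = 0.0045, with 23.1% of all shared regions called). For MGE against CGE, DESeq2 gave 2 calls, a fit of those 2 groups 1 (9.05% of all regions), and leaving out a library 0 to 2. In progenitor-like nuclei leaving out a library gave 0 to 1 calls in MGE against CGE (1 without MGE replicate 2, with 13.1% of all regions called) and in MGE against LGE (1 without CGE replicate 1, with 8.99%). In GABAergic-like nuclei the covered-length offset called 1 element in MGE against LGE (the near Dlx1 upstream element, lower in MGE, with 6.16% of all regions called) and turned the Dlx5/6 domain to -0.0325. Without the offset the log2 change of that domain was 0.044 in the main fit and ran from -0.0591 to 0.155 with libraries left out. Also without the offset, LGE against CGE ran from -0.05495 to 0.325 (Dlx1/2, GABAergic-like), -0.01054 to 0.194 (Dlx5/6, all nuclei) and -0.0161 to 0.220 (Dlx5/6, GABAergic-like). Network calls were 16, 7 and 5 with DESeq2 for CTX against GE, MGE against LGE and MGE against CGE (15%, 2.73% and 2.51% of all genes; 2 of the 16 were higher in CTX and 1 of the 7 lower in MGE), and 4 to 12, 0 to 2 and 0 to 3 with a library left out (12 without CTX replicate 2, 2 of them higher in CTX, with 10.4% of all genes, and 4 without CGE replicate 2, with 1.3%). With a library left out the log2 changes of the window totals ran from -2.19 to -1.88 (Dlx1-Dlx2) and -1.79 to -1.33 (Dlx5-Dlx6); per covered kb they were -1.58 and -1.19, over the counts of shared regions -1.87 and -1.39, and in windows of 5 kb -1.90 and -1.66. They lost their call without a CTX library, where p cannot fall below 0.143. Shares thinned to 3000 counts, without nuclei below that depth, were 23.2% (CTX) and 59.8% (GE) at Dlx1-Dlx2 and 24.9% and 50.7% at Dlx5-Dlx6. Unthinned and over all nuclei they were 56.6%, 82.1%, 58.3% and 74.9%. The causes of these changes were not tested. Same-numbered libraries deviated with correlations of -0.042 to 0.324, with 3 of 6 pairs of groups over 0.1, so pairing was not assumed, although the odd-value shares follow the number. With the replicate block the calls were 3, 0, 0 and 0 elements, as without it, and 8, 2, 2 and 0 network genes against 7, 2, 2 and 0 (of all genes 547, 9, 8 and 0 against 746, 16, 15 and 0), while all regions called numbered 9335, 9, 3 and 0 against 10160, 474, 222 and 0. The comparison of CTX with GE in progenitor-like nuclei and its alternatives were not run.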
